A study of Pimephales promelas with 338 samples.

Results

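Metolachlor OA, the oxanilic acid breakdown product of the herbicide metolachlor, was given to larvae of the fathead minnow, Pimephales promelas, for 24 h at 8 concentrations coded D1 to D8. Its 24 libraries were taken by the treatment label and by sample descriptions that carry the chemical, a letter (A, B or C) and a code. They are 24 of the 338 libraries of the series. The letter was read as the exposure plate, which the labels do not say in words, and is called the plate letter below. Each library was made from a pool of 5 larvae of 1 concentration on 1 of 3 exposure plates, with dead larvae left out, so a code had 3 pools and no value belongs to a single larva. The controls were 3 pools of larvae in DMSO, 1 for each plate letter. All wells of an exposure held the same share of DMSO as solvent, which was never above 0.34%, so treated larvae carried the solvent too. The same plates also held 3,4-Dichlorophenyl isocyanate at 8 codes, with 24 libraries, and caffeine, the positive control, with 3 libraries. Titles of the caffeine libraries name DMSO, and these libraries were taken as caffeine by their treatment label. The nominal series of each chemical ran from 66.67 to 0.021 µM, and the labels do not say which end is D1. Results are therefore given by code, and a slope is a change in log2 level for each of the 7 steps from D8 towards D1. The codes followed the rows of the library plate, with D1 in the first row, so code and row cannot be told apart.

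Metolachlor is a chloroacetanilide herbicide that blocks the enzymes that elongate very-long-chain fatty acids in plants. Soil microbes turn it into oxanilic and ethanesulfonic acids by way of glutathione conjugation, and these polar acids move readily into streams and groundwater. In fish, foreign chemicals are sensed by receptors such as the aryl hydrocarbon receptor and the pregnane X receptor, which switch on oxidising and conjugating enzymes. Reactive chemicals switch on antioxidant genes through NRF2 and chaperones through the heat shock response. The panel measured some members of each of these systems, together with genes of lipid and sugar metabolism, cell division, hormone axes and tissue markers. It held 4 of 15 listed aryl hydrocarbon receptor genes and 6 of 34 listed genes of xenobiotic receptors and oxidising enzymes. Of 40 listed genes of conjugation and transport it held 2. Cytochrome P450 genes were not among those held, so a response of most of these enzymes could not be seen here.

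The assay was TempO-Seq, in which a pair of detector oligonucleotides is ligated on each target transcript and the product is counted by sequencing. The panel held 1832 probes for 1829 gene symbols, and 1507 probes passed the filter on low counts. The Metolachlor OA libraries held 479433 to 842333 counts with a median of 609304, and the DMSO libraries held 559030 on plate A, 485003 on plate B and 727659 on plate C. Levels are given as CPM, the count scaled to a common library total, which is not corrected for transcript length and is not compared between genes. The median correlation of a library with the others, over genes, lay between 0.968 and 0.979. Genes differ widely in level, which raises such a correlation, so it does not measure how close the pools were. Of the 24 pools, 3 stood apart, D3 B, D6 A and D7 A, each with more than 10 genes over 1 log2 unit from the median pool. Counts of calls for the codes, the trend, the slope difference and the plate letter are given without these 3 as well. Markers of liver, gut and pancreas, neurons, retina, collagen-bearing tissue, blood and muscle were all detected, while the panel held 0 of the 14 heart markers listed. Whole-larva RNA was measured, so fewer cells of a type and less RNA per cell cannot be told apart in any result here.

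No gene was called as different from DMSO at any Metolachlor OA code. With edgeR's quasi-likelihood test and Benjamini-Hochberg adjustment over genes and codes, 0 of 1507 probes were called at an adjusted p under 0.05 (0% called), and the smallest adjusted p was 0.998. Between 41 probes at D8 and 71 at D7 had an unadjusted p under 0.05, where 75.4 would be counted at a uniform distribution of p. The fit held no term for the plate letter, so differences between plates counted as spread among the pools of a code. They thus entered the standard errors, the p-values and the intervals. With the plate letter as a block the calls against DMSO also stayed at 0. The trend over codes called 0 probes (0% called), with 23 slopes above 0 and 26 below 0 at an unadjusted p under 0.05. The test of any difference among the 8 codes called 0 (0% called), with 45 at an unadjusted p under 0.05. The mean of all codes against DMSO called 0 (0% called), with 27 higher and 22 lower at an unadjusted p under 0.05. DESeq2 also called 0 in all of these comparisons, with 36 probes at an unadjusted p under 0.05 for the trend, 33 among the codes and 36 for the mean of the codes. Leaving out D3 B, D6 A and D7 A gave 0 calls for the codes, the trend and the mean, and 1 call among the codes, the small heat shock gene hspb1, whose values are given with the chaperones.

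The data bound the size of a response more tightly for abundant transcripts. The median standard error of a log2 difference between a code and DMSO was 0.24, with 3 pools in each group. For 920 of 1507 probes (61.0%), the 95% interval of every code lay inside a 2-fold difference in both directions. That share was 3.34% of the 359 probes with a mean log2 CPM under 5, 61.0% of the 557 probes between 5 and 7, 95.6% of the 407 between 7 and 9 and 97.3% of the 184 over 9. For the mean of all codes, 90.4% of probes had an interval inside a 2-fold difference. For most probes with a mean log2 CPM under 5, where the median standard error at D1 was 0.44 log2, a 2-fold difference at some code lay within the intervals.

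The aryl hydrocarbon receptor genes lay near their DMSO levels. The gene ahrra encodes a repressor that the receptor itself induces, which makes it a readout of receptor activity. It was at 68.0, 63.9 and 82.5 CPM in the DMSO pools and at 59.9, 85.1 and 127 CPM as the lowest, median and highest of the 24 Metolachlor OA pools. Of these pools 14 lay above all DMSO pools, 3 below and 7 within, so the groups overlapped. Its difference from DMSO was 0.09 log2 at D1 (95% interval -0.36 to 0.53) and 0.42 log2 at D8 (-0.01 to 0.84), and its slope was -0.017 per step (-0.06 to 0.03). The receptor gene ahr2 was at 519, 520 and 469 CPM in DMSO and at 414, 502 and 599 CPM as the lowest, median and highest exposed pool. These groups overlapped as well, and the difference of ahr2 was 0.08 log2 at D1 (-0.15 to 0.30) and 0.04 at D8 (-0.18 to 0.27). The quinone reductase gene nqo1, a target of both the receptor and NRF2 in mammals, was at 68.0, 86.6 and 71.5 CPM in DMSO against 50.1, 66.1 and 101 CPM. All 3 tested genes of this list had intervals inside a 2-fold difference at every code, where 61.0% of all probes did.

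The pregnane X receptor gene nr1i2, whose product switches on genes that clear foreign chemicals and bile acids, lay above the DMSO range in most exposed pools but was not called. It was at 82.3 CPM in DMSO pool A, 63.9 in B and 90.7 in C, and at 77.0, 112 and 157 CPM as the lowest, median and highest Metolachlor OA pool. Of the 24 exposed pools 21 lay above all 3 DMSO pools and 3 lay within their range. The gene was among those chosen by their p for the mean of the codes, so that count gives no separate evidence. The mean of the codes was 0.47 ± 0.16 log2 (SE) above DMSO, with an unadjusted p of 0.00489 and an adjusted p of 0.984 by edgeR. The difference was similar at both ends of the code series: it was 0.62 log2 at D1 (95% interval 0.21 to 1.04), 0.64 at D7 (0.23 to 1.05) and 0.39 at D8 (-0.02 to 0.81), and the slope was -0.0028 per step (-0.05 to 0.04). Caffeine pools of the same plates stood 0.69 log2 above the same DMSO pools (0.28 to 1.09), and both comparisons share those 3 DMSO libraries. Dehydrogenase genes of this list stayed closer to DMSO. The aldehyde dehydrogenase aldh9a1a.1 was at 948, 868 and 860 CPM in DMSO and between 702 and 1046 CPM in exposed pools, and the alcohol and formaldehyde dehydrogenase adh5 was at 646, 584 and 550 CPM against 500.4 to 716 CPM. The pools of both genes overlapped with DMSO.

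Conjugation genes were represented by ugdh, which makes the UDP-glucuronic acid used in glucuronidation, and by comtb, a catechol methyltransferase. The first ugdh probe was at 1572, 1346 and 1862 CPM in DMSO and at 1094, 1518 and 2365 CPM as the lowest, median and highest exposed pool. The second was at 730, 660 and 933 CPM against 444, 730 and 1192 CPM. Both probes overlapped with DMSO and their slopes were 0.025 and 0.031 per step. Of 18 tested genes of the NRF2 and glutathione list, 0 were called by code, trend, difference among codes or mean of the codes. Their slope differences from the other chemical of the plates are given below. The median slope was 0.010 against -8.784e-04 over all genes. Of the 18 genes, 12 had intervals inside a 2-fold difference at all codes, where 61.0% of all probes did. The 12 included gpx4b, which reduces lipid peroxides, at 1891, 1940 and 1828 CPM in DMSO and between 1630 and 2164 CPM in exposed pools. The peroxiredoxin gene prdx2 was at 1222, 1155 and 1197 CPM in DMSO and between 1112 and 1463 CPM. For glutathione synthesis itself, the ligase subunits gclc and gclm had slopes of 0.040 and 0.020 per step and means over codes of -0.12 and -0.05 log2 from DMSO.

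**Figure D1:**
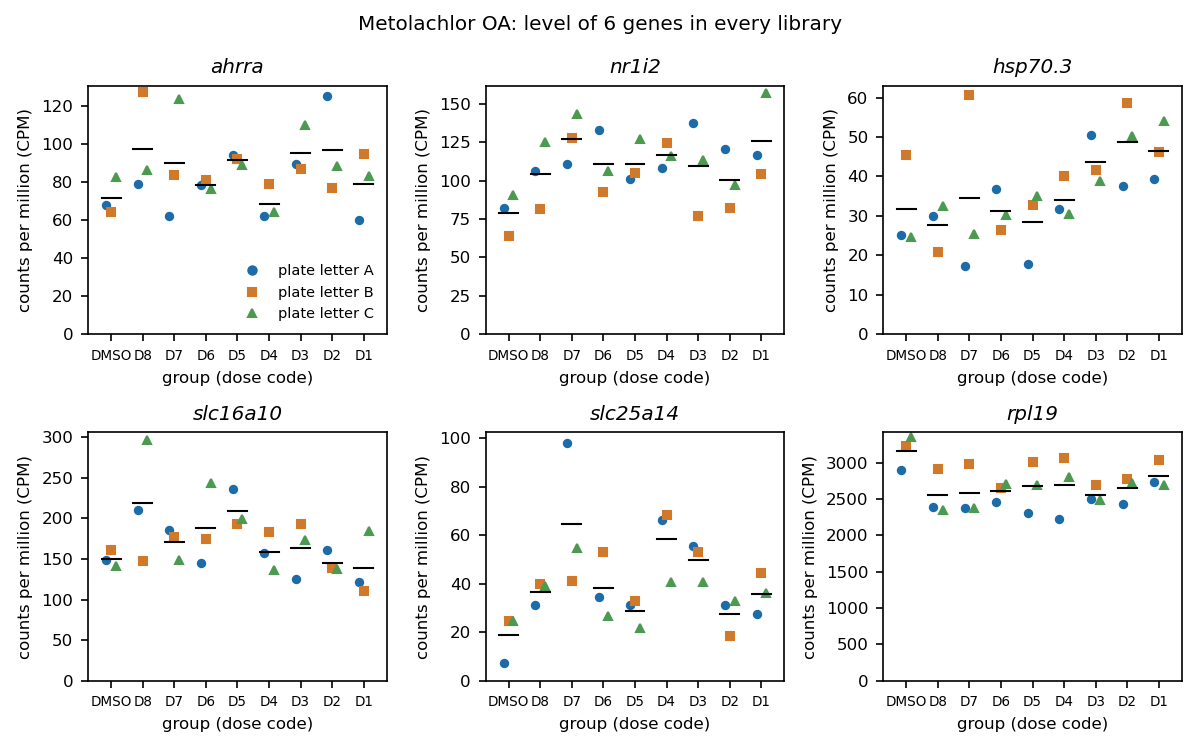
Level of 6 genes in every library (CPM, y axis) for DMSO and for Metolachlor OA codes from D8 to D1 (x axis), with 1 marker for each plate letter and a bar at the mean of 3 pools. Most exposed pools of nr1i2, slc25a14, ahrra and slc16a10 lie above all DMSO pools, by a narrower majority for ahrra and slc16a10. Most exposed pools of rpl19 lie below all DMSO pools, and most of hsp70.3 lie within the DMSO range. None of the 6 was called against DMSO.

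The heat shock list held the rising slope with the smallest trend p, that of hsp70.3, which was not called. The inducible chaperone gene hsp70.3 was at 25.04, 45.4 and 24.7 CPM in DMSO and at 17.3, 35.9 and 60.8 CPM as the lowest, median and highest exposed pool, and 15 of 24 pools lay within the DMSO range. Its mean was 46.6 ± 7.4 CPM at D1 (SD, n = 3) and 27.8 ± 6.2 CPM at D8. The slope was 0.11 ± 0.04 log2 per step (SE, 95% interval 0.04 to 0.18), with an unadjusted p of 0.00372 and an adjusted p of 0.999 by edgeR. It lay above 0 on each plate, at 0.11 on A, 0.09 on B and 0.13 on C. The gene was chosen by its slope over these same pools, so the plates give no separate evidence. The gene had a mean of 22.4 counts a library. The constitutive chaperone hspa8 was at 9676, 9701 and 9668 CPM in DMSO and between 8710 and 11123 CPM in exposed pools, and the small heat shock gene hspb8 was at 828, 753 and 779 CPM against 650 to 926 CPM. Pools of both overlapped with DMSO.

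The small heat shock gene hspb1, a chaperone of damaged protein and of the cytoskeleton, was near the limit of counting, at a mean of 10.2 counts a library. It was at 10.7, 28.9 and 39.9 CPM in DMSO and between 0 and 49.5 CPM in exposed pools, with 1.71, 2.01 and 0 CPM in the 3 pools of D1. The fitted difference at D1 was -4.31 ± 1.31 log2, with an unadjusted p of 0.00196 and an adjusted p of 0.998. The difference among codes was called (adjusted p = 0.0295) only when D3 B, D6 A and D7 A were left out. Its plate letters also differed, by 2.11 log2 at most, the largest difference among the genes called by plate letter.

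Genes of the endoplasmic reticulum, of DNA damage and of low oxygen gave 0 called members by code, trend, difference among codes or mean of the codes. The reticulum chaperone hspa5 was at 1334, 1367 and 1567 CPM in DMSO and at 733, 1198 and 3594 CPM as the lowest, median and highest exposed pool, and its highest value is described with pool D3 B. In the list of 17 tested genes of p53 and DNA damage, the median slope was 0.0058, and the p53 target cdkn1a, a brake on the cell cycle, had a slope of -0.017 and a mean over codes of -0.08 log2. The hypoxia regulator hif1ab was at 1229, 1095 and 1032 CPM in DMSO and between 975 and 1364 CPM in exposed pools. Its slope was 0.022 per step with an unadjusted p of 0.0333 and an adjusted p of 0.999 by edgeR.

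Fatty acid elongases of fish were on the panel as elovl2, elovl4b and elovl6, which belong to another protein family than the plant enzymes that the parent herbicide blocks. The gene elovl4b was at 170, 186 and 198 CPM in DMSO and at 118, 166 and 236 CPM as the lowest, median and highest exposed pool. The groups overlapped, and its difference was -0.05 log2 at D1 (95% interval -0.44 to 0.34) and -0.16 at D8 (-0.55 to 0.24), with a slope of -0.0035 per step (-0.05 to 0.04). The slopes of elovl2 and elovl6 were -0.045 and 0.020, and that of fads2, a desaturase of polyunsaturated fatty acids, was 0.016. The isoprenoid enzyme idi1, on the path to cholesterol, was at 156, 128 and 139 CPM in DMSO and between 96.2 and 210 CPM in exposed pools. In all, 0 of 8 tested genes of fatty acid and cholesterol synthesis were called by code, trend, difference among codes or mean of the codes. Of these 8 genes, 6 had intervals inside a 2-fold difference at all codes, where 61.0% of all probes did. Among 12 tested genes of fatty acid oxidation 0 were called in the same comparisons, with a median slope of -0.0076. Of these 12, 8 were bounded to 2-fold at all codes, beside the same 61.0% of all probes. The liver glycogen phosphorylase pygl, which frees glucose from glycogen, was at 256, 274 and 268 CPM in DMSO and 20 of 24 exposed pools lay above all 3. Its mean over codes was 0.24 log2 above DMSO (0.01 to 0.48), with an adjusted p of 0.984 by edgeR, and it was not called. The gene was named with its values in view.

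Genes of cell division, translation and protein breakdown also gave 0 called members by code, trend, difference among codes or mean of the codes. The replication clamp pcna was at 1098, 1346 and 991 CPM in DMSO and at 752, 1325 and 1769 CPM as the lowest, median and highest exposed pool. The clamp partner pclaf was at 453, 633 and 547 CPM against 235, 500 and 733 CPM. Both overlapped with DMSO. Of 37 tested genes of cell cycle and replication, 35 had an unadjusted trend p of at least 0.05, and the other 2 were the checkpoint kinase bub1 and the mitotic kinesin kif20a, with slopes of -0.11 and -0.10. Of 33 ribosomal protein genes, 30 had intervals inside a 2-fold difference at all codes, where 61.0% of all probes did. That share was 95.6% of probes with a mean log2 CPM of 7 to 9 and 97.3% of those over 9. The summed level of the ribosomal protein genes was 406820 to 417282 CPM in DMSO. It was 364307, 393004 and 421745 CPM as the lowest, median and highest exposed pool. The large-subunit gene rpl19 was at 2894, 3225 and 3360 CPM in DMSO and at 2221, 2691 and 3061 CPM as the lowest, median and highest exposed pool. Of the exposed pools 19 lay below all DMSO pools. The gene was chosen by its p for the mean of the codes, so that count gives no separate evidence. Its mean over codes was -0.28 ± 0.10 log2 (95% interval -0.48 to -0.09), with an unadjusted p of 0.00513 and an adjusted p of 0.984 by edgeR.

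Hormone and stress-axis genes were called in 0 cases by code, trend, difference among codes or mean of the codes. The deiodinase dio3b, which inactivates thyroid hormone, was at 225, 353 and 309 CPM in DMSO and at 178, 238 and 361 CPM as the lowest, median and highest exposed pool. Its mean over codes was -0.28 log2 (95% interval -0.56 to -0.00) with an adjusted p of 0.984 by edgeR, and it was -0.13 log2 without DMSO pool B and -0.45 without DMSO pool A. The glucocorticoid-induced chaperone fkbp5 had a mean over codes of -0.46 log2, or -0.31 without DMSO pool A, and was not called. The transcription factor cebpd, which acts downstream of glucocorticoids and cytokines, was at 2368, 1305 and 2006 CPM in DMSO and between 1098 and 2186 CPM in exposed pools. These groups overlapped, with DMSO pool B below and DMSO pool A above most exposed pools.

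Tissue markers gave 0 called members by code, trend, difference among codes or mean of the codes. The summed levels of the lists given here overlapped between exposed and DMSO pools. Liver and plasma protein markers summed to 78298 to 97940 CPM in DMSO and to 77649, 98987 and 124396 CPM as the lowest, median and highest exposed pool. Nearly all of it was apoa2, an apolipoprotein, at 73254, 92896 and 85287 CPM in DMSO. Neuron and glia markers summed to 6003 to 6755 CPM in DMSO and to 5996, 6615 and 7431 CPM in exposed pools. Retina and lens markers summed to 2304 to 2388 CPM against 2054, 2382 and 2737 CPM. Blood and vessel markers summed to 467 to 565 CPM against 484, 560 and 686 CPM. Muscle rested on 2 markers, the filament gene desma and the myogenic factor myf5, whose sum was 844 to 1388 CPM in DMSO and 691 to 2066 CPM in exposed pools. Of 23 collagen, cartilage, bone and skin genes, 19 had intervals inside a 2-fold difference at all codes, where 61.0% of all probes did. Many genes of this list are abundant. The share was 95.6% of probes with a mean log2 CPM of 7 to 9 and 97.3% of those over 9.

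**Figure D2:**
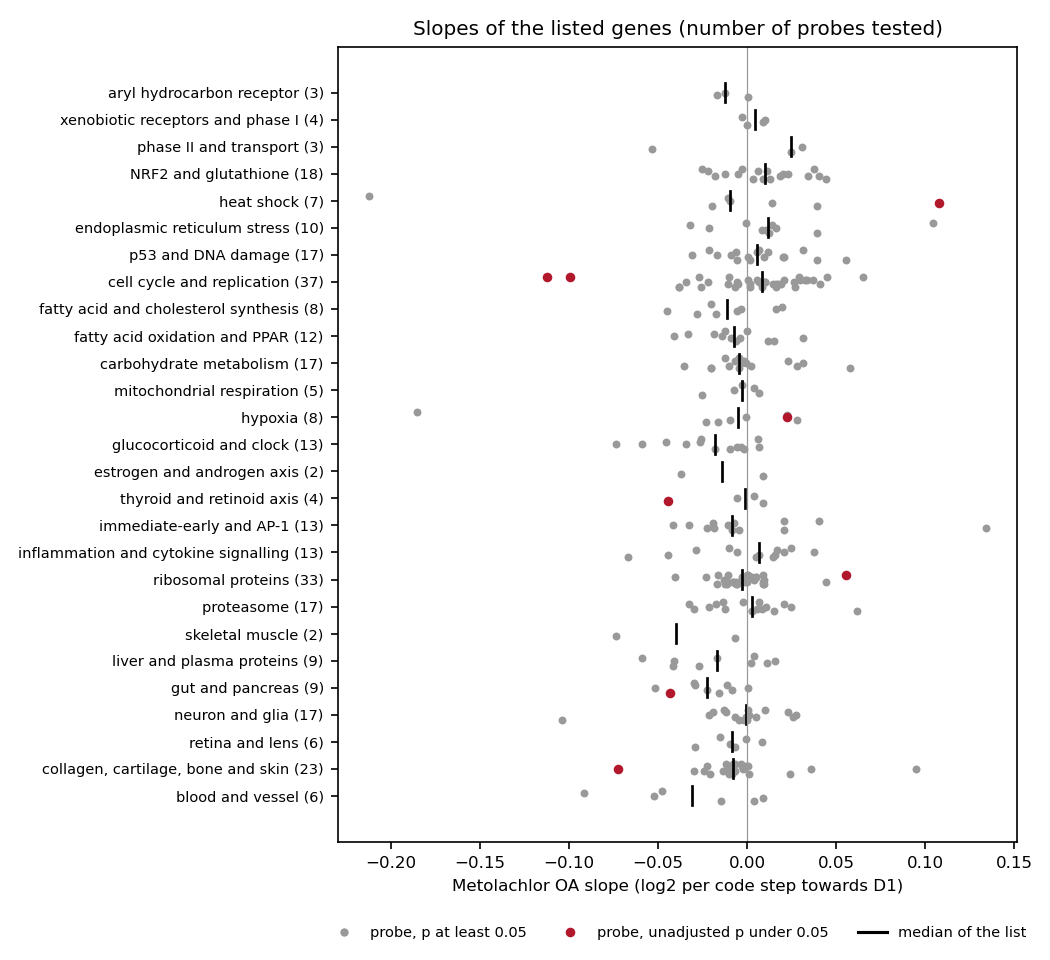
Slope over the Metolachlor OA codes (log2 per step towards D1, x axis) for each tested probe of every gene list (y axis), with a bar at the list's median and red for probes with an unadjusted p under 0.05. All list medians lie between -0.04 and 0.03, and 0 probes were called by the trend.

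Since 0 genes were called by the trend, the difference among codes or the mean of the codes, those at the head of each ranking are given as values. For the trend, slc16a10, a carrier of aromatic amino acids and thyroid hormone, had the smallest unadjusted p among falling slopes. It was at 148, 161 and 142 CPM in DMSO and at 111, 174 and 297 CPM as the lowest, median and highest exposed pool, with a slope of -0.09 ± 0.02 per step, an unadjusted p of 0.00128 and an adjusted p of 0.999 by edgeR. Its difference from DMSO was 0.55 log2 at D8 (95% interval 0.10 to 1.00) and -0.15 at D1 (-0.62 to 0.33). Its means were uneven over the codes, at 219 ± 74.7 CPM at D8 (SD, n = 3), 171 ± 19.2 at D7 and 210 ± 22.8 at D5. The D8 pools A, B and C were at 211, 148 and 297 CPM. The adiponectin gene adipoqb, the growth factor gene pdgfc, the bone matrix gene spp1 and pih1d1 followed, with slopes of -0.11, -0.06, -0.07 and -0.06. For adipoqb the D8 pools were at 67.9 ± 8.4 CPM (SD, n = 3) against 41.2 ± 4.9 CPM in DMSO, a difference of 0.72 log2 (0.09 to 1.35). Behind hsp70.3, the rising slopes were those of ddias at 0.09, eef2l2 at 0.08, the receptor tyrosine kinase erbb2 at 0.08 and the glycosyltransferase galnt7 at 0.05.

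For the difference among codes, the smallest adjusted p was 0.651, shared by fbxo21, part of a ubiquitin ligase, and bzw1b, a translation regulator. The level of fbxo21 did not follow the order of the codes: its means were 142 CPM at D1, 101 at D3, 97.6 at D4, 159 at D6 and 115 at D8, with 115 ± 21.4 CPM in DMSO (SD, n = 3). The nuclear receptor nr4a3, an early response gene, had its highest mean at D7, at 141 ± 10.5 CPM against 81.7 ± 13.7 CPM in DMSO, and its adjusted p was 0.735. For the mean of the codes, slc25a14, a mitochondrial uncoupling carrier, was at 7.2, 24.7 and 24.7 CPM in DMSO and at 18.3, 39.5 and 97.9 CPM as the lowest, median and highest exposed pool. Of the exposed pools 22 lay above all DMSO pools, and the mean difference was 1.06 ± 0.35 log2 (95% interval 0.36 to 1.76), with an adjusted p of 0.984 by edgeR. Without DMSO pool A, the lowest of the 3, that difference was 0.69 log2. The ribosome assembly factor wdr3 was at 42.9, 70.103 and 38.5 CPM in DMSO and between 23.8 and 45.1 CPM in exposed pools, of which 20 lay below all DMSO pools. Its mean difference was -0.59 ± 0.20 log2 (-0.99 to -0.19), and -0.29 log2 without DMSO pool B, the highest of the 3. In the caffeine pools of these plates wdr3 stood at -0.95 log2 (-1.52 to -0.39) from the same DMSO pools. Both slc25a14 and wdr3 were chosen by their p for the mean of the codes. Their counts of pools above or below DMSO thus give no separate evidence.

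Every code was set against the same 3 DMSO pools, so the comparisons are not independent of each other. An unadjusted p under 0.05 was found at some code for 290 probes, at 3 or more codes for 37 and at 5 or more codes for 6. These 6 were arid5b, nr1i2 and rpl19, each at 6 codes, and ncapg2, slc25a14 and wdr3, each at 5 codes. The choice of these 6 was made with their values in view. Caffeine, the positive control of these plates, was compared with the same DMSO pools. It also gave 0 calls in edgeR, with 72 probes at an unadjusted p under 0.05, and 0 in DESeq2, with 58. A comparison of 3 pools with these DMSO pools thus called no gene for the positive control either.

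The other chemical of these plates, 3,4-Dichlorophenyl isocyanate, gave a reference for what the same assay registered in larvae of the same exposure. The question was whether the slope over codes differed between the chemicals, each with its own 24 pools. The slope difference was called for 87 of 1507 probes (5.77% called) by edgeR, with the Metolachlor OA slope lower in 39 and higher in 48, and for 82 by DESeq2. With 1 plate letter left out the count was 65 without A, 23 without B and 22 without C, and it was 76 without the pools D3 B, D6 A and D7 A. In 85 of the 87 the Metolachlor OA slope was the smaller in size, and its median size was 0.0155 per step, against 0.0159 over all tested probes and 0.11 for the other chemical. The trend of the other chemical alone was called for 282 probes.

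The clearest case was ahrra. At D1 it was at 79.1 ± 17.6 CPM (SD, n = 3) with Metolachlor OA and at 3757 ± 892 CPM with 3,4-Dichlorophenyl isocyanate, and at D8 it was at 97.5 ± 25.9 against 72.8 ± 11.3 CPM. The slopes differed by -0.83 ± 0.03 log2 per step (SE), with an adjusted p of 1.075e-27 by edgeR. The receptor gene ahr2 was at 541 ± 34 against 1545 ± 126 CPM at D1. The chaperone hsp70.3 was at 46.6 ± 7.4 against 298 ± 80 CPM at D1, so its slope with Metolachlor OA was lower by 0.26 log2 per step, although it headed the rising slopes named above. Glycogen phosphorylase pygl was at 290 ± 5.7 against 720 ± 66 CPM, and monoamine oxidase mao, which breaks down amine transmitters, was at 103 ± 3.1 against 277 ± 24 CPM.

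Some genes of skeleton and cell division had a called difference in the other direction, with the higher slope in Metolachlor OA. The cartilage collagen col10a1a was at 2596 ± 114 CPM at D1 against 963 ± 88 CPM, a slope difference of 0.17 log2 per step, and the secreted growth factor carrier fgfbp2b was at 985 ± 55 against 515 ± 117 CPM. By list, 9 of 23 collagen, cartilage, bone and skin genes and 7 of 37 cell cycle genes had a called slope difference, all with the Metolachlor OA slope higher, where 5.77% of all probes were called in either direction. Over all 23 genes the median slope was -0.0080 with Metolachlor OA and -0.065 with the other chemical. Over all 37 cell cycle genes it was 0.0085 and -0.094. In the NRF2 list 3 of 18, in the aryl hydrocarbon receptor list 2 of 3 and in the hypoxia list 2 of 8 were called, all with the Metolachlor OA slope lower. These 3 counts are of few genes.

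**Figure D3:**
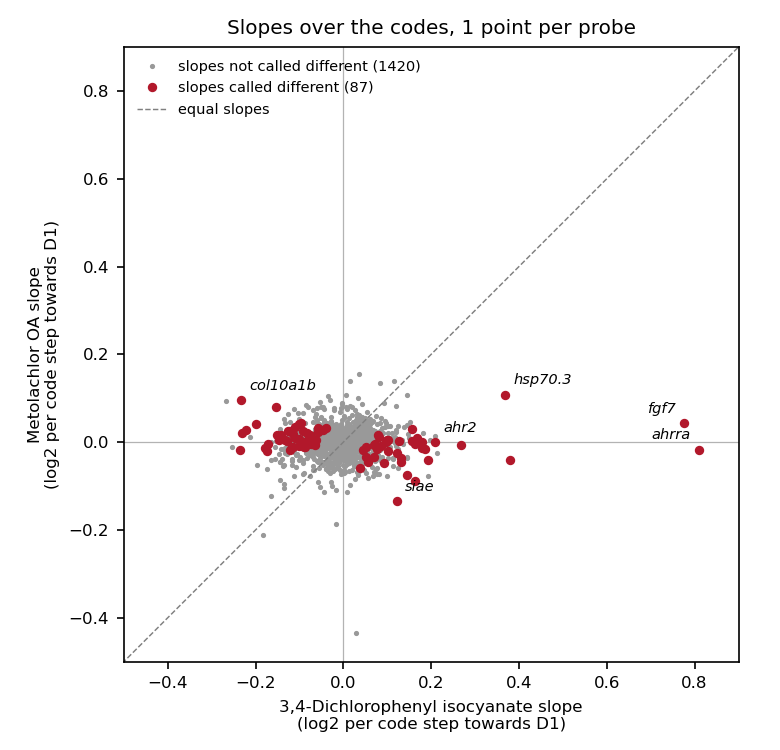
Slope over the codes with Metolachlor OA (y axis) against the slope with 3,4-Dichlorophenyl isocyanate on the same plates (x axis), both in log2 per step towards D1, for 1507 probes. The 87 probes with a called slope difference are red, and they spread along the x axis while their Metolachlor OA slopes lie between -0.13 and 0.11; the dashed line marks equal slopes.

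The exposed pools also differed among themselves. Over 1122 genes with a mean of at least 20 counts, the median SD of log2 CPM over the 24 pools was 0.25, and 25 genes had an SD above 0.5. The most variable were the haemoglobin gene hbae5, from 10.6 to 187 CPM with an SD of 1.102, and mki67, a marker of dividing cells, from 7.12 to 94.7 CPM with an SD of 1.03. A pool had 2 to 25 genes more than 1 log2 unit from the median pool, with a median of 4.

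Pool D3 B had the highest summed level of reticulum stress genes. Its hspa5 was at 3594 CPM against a median of 1198 over the 24 pools, its reticulum chaperone hyou1 at 181 against 80.4 CPM, and its growth arrest gene gadd45aa at 464 against 153 CPM. The stress sensor sesn2 was at 78.6 against 33.5 CPM, the serine synthesis enzyme phgdh at 138 against 66.2 CPM, and the sugar epimerase gale at 332 against 99.3 CPM. Of 10 tested reticulum stress genes, 5 were higher in D3 B than in any other exposed pool, as were 4 of 17 genes of the p53 list and 4 of 18 of the NRF2 list. Over all 1507 probes this pool was highest in 109 and lowest in 69, where an even share is 62.8. The summed level of the reticulum list was 9842 CPM in D3 B, against a median of 6236 and a DMSO range of 5916 to 6473. These values describe 1 pool and carry no test.

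Pool D6 A was low in genes of dividing cells. Its mki67 was at 7.12 CPM against a median of 48.7, the chromatin maintenance gene uhrf1 at 40.4 against 152, pclaf at 235 against 500, and the replication helicase gene mcm3 at 13.1 against 36.3. Of 37 tested cell cycle genes, 20 were lower in D6 A than in any other exposed pool. Their sum was 2603 CPM against a median of 4597 and a DMSO range of 4132 to 4668. The same pool had the lowest sums of liver markers, at 77649 CPM, of collagen-bearing tissue, at 68033 CPM, of fatty acid synthesis, at 579 CPM, and of the proteasome, at 4571 CPM, and the highest sums of neuron and of muscle markers among exposed pools. It was lowest in 141 and highest in 135 of all 1507 probes, where an even share is 62.8. How these shares bear on the cell cycle genes was not tested.

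Pool D4 C was high in immediate-early genes, which switch on within minutes of a stimulus. The AP-1 subunit gene fosab was at 994 CPM there, against a median of 339 and DMSO values of 333, 247 and 306 CPM. The list summed to 3334 CPM, with a median of 2288 and a DMSO range of 1872 to 2376, and 5 of 13 members were higher than in any other exposed pool. Over all 1507 probes D4 C was highest in 51 and lowest in 47, with an even share of 62.8. Pools A and B of D4 had fosab at 287 and 233 CPM. Pool D7 A was the lowest exposed pool in 9 of 33 ribosomal protein genes, among them rpl15, at 8.63 CPM against a median of 36.5, and the highest in 5. Over all 1507 probes it was lowest in 138 and highest in 120, above the even share of 62.8 in both directions.

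**Figure D4:**
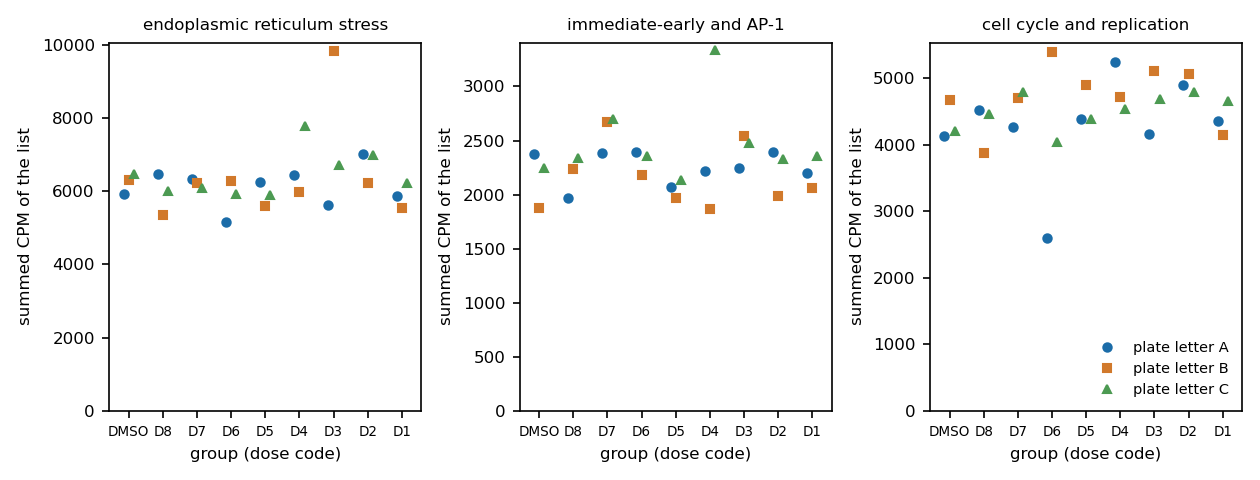
Summed level (CPM, y axis) of the endoplasmic reticulum stress, immediate-early and cell cycle lists in each of the 3 DMSO and 24 Metolachlor OA libraries, by code (x axis) with 1 marker for each plate letter. The pools farthest from the DMSO range are D3 B at 9842 for reticulum stress, D4 C at 3334 for immediate-early genes and D6 A at 2603 for cell cycle genes.

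Genes also differed by plate letter, in a test unlike those of the codes. It set 8 pools of each letter against each other with the code means removed, so its count is not compared with those by code. Within the 24 Metolachlor OA libraries, 382 of 1470 tested probes (26% called) differed between plate letters by edgeR, and 300 by DESeq2, in a test added after the data were seen. The count was 31 with only plates B and C, 405 without B and 212 without C. It was 210 without the pools D3 B, D6 A and D7 A, of which D6 A and D7 A came from plate A. Plates B and C lay together above A for 187 of these genes and together below A for 171. The median of the largest plate difference was 0.44 log2. Among the ribosomal protein genes, 28 of 33 were called, 18 higher and 10 lower on plate C than on plate A. The large-subunit gene rpl26 was at 4877 ± 676 CPM on plate A (SD, n = 8), 8148 ± 690 on B and 8196 ± 1098 on C. The plate A pools, between 3917 and 6169 CPM, did not overlap with those of B, between 7361 and 9319, or of C, between 6812 and 9914. The gene was chosen by its p for the plate letter over these same pools, so that gap gives no separate evidence. The DMSO pools of A, B and C were at 6007, 7212 and 9334 CPM, in the same order as the means.

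Other genes ran the opposite way. The intestinal phosphatase alpi.2 was at 1751 ± 172 CPM on plate A (SD, n = 8), 1018 ± 171 on B and 1219 ± 146 on C, with DMSO pools at 1823, 1171 and 1277 CPM. The lipoprotein receptor scarb1 was at 146 ± 35 CPM on A, 99.6 ± 16.5 on B and 64.5 ± 14.1 on C, a difference of -1.25 ± 0.13 log2 between C and A. The synaptic gene snap25a was at 1622 ± 84 CPM on A, 1225 ± 111 on B and 1321 ± 81 on C. The first principal component of the 27 exposed and DMSO libraries held 16.2% of the variance and placed all plate A libraries between -11.7 and -1.42 and those of B and C between -0.91 and 6.26. The median library total was 734004 on A, 609304 on B and 570354 on C, so depth is only partly separate from the plate. The totals overlapped, at 479433 to 842333 on A, 497606 to 755419 on B and 550163 to 685355 on C. The plate and its library preparation cannot be told apart. With the log2 library total as a covariate, 191 genes were called by plate letter.

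With 3,4-Dichlorophenyl isocyanate, whose pools came from the same plate letters, 87 of 1485 probes (5.86% called) differed by plate letter. For 340 of the 382 genes called with Metolachlor OA (89.0%), the sign of the difference between C and A was the same there. That share over all tested probes is not given here, so the percentage has no background beside it. Genes called with both chemicals numbered 57. That is 14.9% of the Metolachlor OA calls, where 5.86% of all tested probes were called with the other chemical. It is 65.5% of the calls of the other chemical, where 26% of all tested probes were called with Metolachlor OA. The overlap itself was not tested. The slope over codes was not called as different between plates for any of 1470 probes by edgeR or DESeq2, with 45 and 30 at an unadjusted p under 0.05. Every code had 1 pool of each plate letter, so the plate means are balanced in all comparisons between codes and DMSO.

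**Figure D5:**
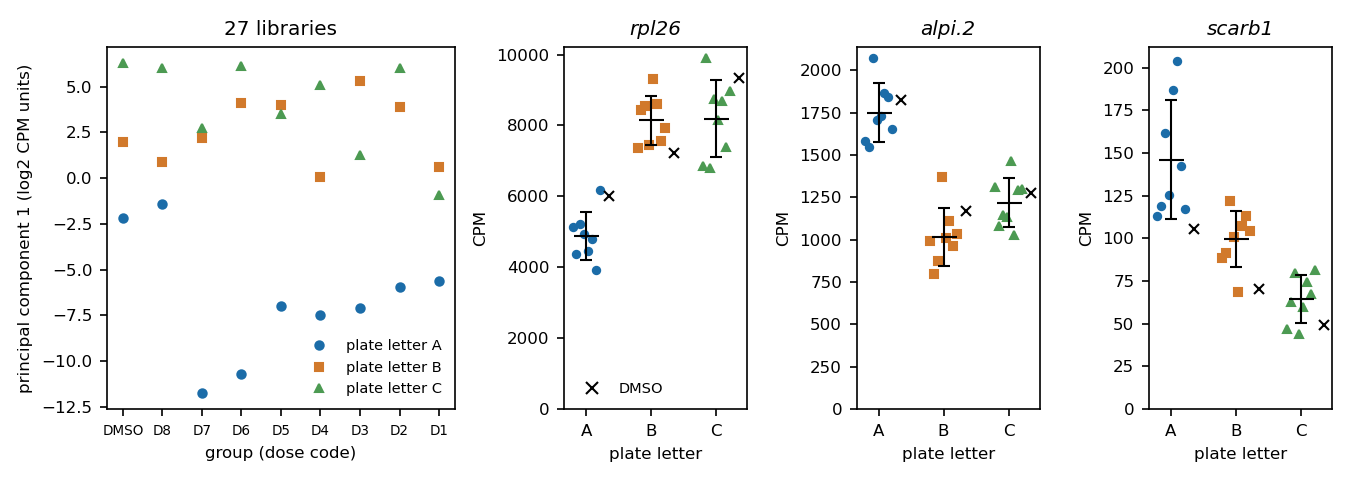
First principal component of the 24 Metolachlor OA and 3 DMSO libraries (y axis) by plate letter, beside levels of rpl26, alpi.2 and scarb1 (CPM, y axis) by plate letter, with the mean ± SD of 8 exposed pools and crosses for the DMSO pools. Plate A lies below B and C for rpl26 and above them for alpi.2 and scarb1. The genes were chosen by their p for the plate letter over these same exposed pools.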

How the data were processed

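Raw probe counts were deposited for each TempO-Seq library of pooled whole larvae, with no normalization by the authors, per the file headers and the values. Base calling was done with bcl2fastq, per the submitters' processing notes, which give no version. The sources used here do not give an aligner, probe sequences or a genome build, so neither coordinates nor sequences are printed. Columns were matched to samples by the descriptions, with 0 left over, and the 2 deposited tables that hold these libraries had 0 cells in disagreement. The letter in a description was read as the exposure plate. Caffeine libraries were grouped by treatment label, since their titles name DMSO. RefSeq's gene table (assembly fPimPro1.hap1.1) held 1721 of the 1829 symbols and served for names only. The symbol ugdh has a pair of probes, each reported separately. Where paralogs are near-identical, as in ribosomal proteins and collagens, a probe may read more than 1 gene.

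Tests used edgeR 4.0.16 with limma 3.58.1 under R 4.3.3. One fit of group means, with no term for the plate letter, covered the 54 libraries of the exposure (Metolachlor OA, 3,4-Dichlorophenyl isocyanate, DMSO and caffeine). TMM scaling, filterByExpr with a minimum count of 10 and quasi-likelihood F-tests were applied. Contrasts were each code against DMSO, the linear trend over codes, any difference among codes, the mean of the codes against DMSO and the slope difference between the chemicals. The threshold was a Benjamini-Hochberg adjusted p under 0.05, over genes and codes together for the code contrasts and over genes for the others. Intervals are 95% intervals. Plate letters were compared in a separate fit of the 24 libraries. Alternatives were DESeq2 1.42.0, RLE scaling, no filter on low counts, the replicate block and leaving out each plate letter. Each DMSO pool was left out in turn for contrasts with DMSO, and code D1 or D8 for the trend. Of the exposed pools only D3 B, D6 A and D7 A were left out, together and after the data were seen. The code was tested on simulated data.

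Named genes had a mean of at least 20 counts and were the 5 rising and 5 falling genes with the smallest trend p, the 5 smallest for the difference among codes, the 5 smallest for the mean of the codes, and the 2 most abundant members of each list. Genes of the slope difference (12 with the smallest p), of plate letters and of pools that stood apart, hspb1, and further list members named for their role were chosen with values in view. The members and lists were chosen with earlier results of these data known. A replicate is a pool of other larvae on another plate. Chi-square per degree of freedom between libraries of 1 code was 3.37 to 22.0, more than sampling noise, so each library counted as 1 replicate. No source used here mentions molecular identifiers, so PCR copies may be counted. Deviations from group means correlated on average at 0.152 between libraries of the same letter (-0.157 to 0.425) and at -0.0754 between letters. A group has 1 pool of each letter, so the second value largely follows from the first and is no separate evidence. The pairing comes from reading the letter as a shared plate.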

Additional observations from a re-analysis of the deposited data

Results flagged for a closer look

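The effect of the code differed between the 2 chemicals of these plates for 87 probes, by the test of the difference itself. The slopes below are Metolachlor OA minus 3,4-Dichlorophenyl isocyanate in log2 per step towards D1. Among genes that sense or handle foreign chemicals and stress, the differences were -0.83 for ahrra, -0.21 for ahr2, -0.26 for hsp70.3 and -0.16 for mao. Among metabolic genes they were -0.19 for pygl and -0.17 for pah, the phenylalanine hydroxylase. Among genes of skeleton and matrix they were 0.17 for col10a1a, 0.15 for fgfbp2b and 0.093 for col1a2. Among replication genes they were 0.12 for pcna and 0.14 for pclaf. The transcription regulators gave -0.18 for dlx3b, 0.082 for id1 and -0.063 for bhlhe40, and the growth factor pdgfc gave -0.10. The unnamed loci si:dkey-219e21.2 and zgc:136930 gave -0.27 and 0.17. In each of these genes the trend with Metolachlor OA was not called. With 1 plate letter left out, some slope differences were no longer called: those of id1, zgc:136930 and col1a2 without B, pcna and bhlhe40 without B or C, pclaf without A, and pdgfc without any 1 of the 3. Of all probes, 65 were called without A, 23 without B and 22 without C.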

How the results depend on the processing

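Counts for the codes, the trend and the mean of the codes against DMSO, for caffeine and for the slope difference between plates stayed at 0 in every setting run. The difference among codes gave 1 call, hspb1, without the libraries D3 B, D6 A and D7 A, and 0 in the other settings. The slope difference between the chemicals gave 87 calls, 82 with DESeq2, 85 with RLE scaling, 73 with no filter on low counts and 76 without those 3 libraries. Leaving out 1 plate letter at a time gave 22 to 65 calls, 22 without C, 23 without B and 65 without A, from fewer pools a code. With the replicate block it gave 117 calls, and the block changed no other call. The plate letter gave 382 calls, 191 with the log2 library total as a covariate, 210 without D3 B, D6 A and D7 A, and 31 to 405 when 1 letter was left out, 31 without A, 212 without C and 405 without B. Of 928 values for 83 single-gene results, 900 kept their side of the threshold and their direction or moved by less than 1 SE. For 11 values, all slope differences with 1 letter left out, the call was lost (for example id1 at 0.074 and zgc:136930 at 0.12 without B). For 17 uncalled values the sign changed by more than 1 SE, and 0 called values reversed. Limits are the 3 pools for each code, the shared 3 DMSO pools, low counts for many probes, and a code order whose direction in concentration is not given.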

Other observations

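The lists of digestive, energy, proteasome and immune genes, of which only single members are described above, also gave 0 called members for the codes, the trend and the mean of the codes. Gut and pancreas markers, among them the trypsin gene prss59.1 and the amylase gene amy2a, summed to 21385 to 23642 CPM in DMSO and to 15836, 21886 and 26250 CPM as the lowest, median and highest exposed pool. Carbohydrate metabolism genes, led by the lactate dehydrogenase ldha and the pyruvate kinase pkmb, summed to 8416 to 8578 CPM in DMSO and to 7074, 8774 and 10399 CPM. The 5 tested mitochondrial genes, led by the adenine nucleotide carrier slc25a4, summed to 15829 to 17820 CPM and to 12669, 15916 and 21049 CPM. Proteasome subunits summed to 5200 to 5812 CPM in DMSO and to 4571, 5871 and 6567 CPM. Inflammation and cytokine genes, such as the signalling suppressors socs2 and socs3a, summed to 2654 to 3918 CPM and to 2333, 2920 and 3672 CPM. The exposed pools overlapped with DMSO in each of these lists. The haemoglobin gene hbae5 was at 25.04, 37.1 and 13.7 CPM in DMSO, at 187 CPM in pool D2 B and at 10.6 CPM in pool D6 B, and in the caffeine pools it was at 48.3, 75.7 and 297 CPM.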
